A study of Mus musculus with 6 samples.

Results

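The genes of the cytosolic ribosomal proteins were described in tumour-associated macrophages from CT26 tumours labelled Sg-C3 and Sg-Con. They were picked by symbol alone: Rpl or Rps followed by a digit, and Rplp0, Rplp1, Rplp2 and Rpsa. The pattern matched 103 rows, of which 9 rows of S6 kinase genes (Rps6k) and 6 rows named as pseudogenes (-ps) were set aside. This left 88 of the 15487 genes of the table. Of the 88, 77 are core ribosomal protein genes (46 of the large and 31 of the small subunit), 10 are paralogue copies such as Rpl22l1, and Rps19bp1 encodes a protein that binds Rps19. All 88 identifiers were found in the RefSeq table.

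Ribosomes make all cellular protein, and each holds a single copy of most of these proteins on a scaffold of ribosomal RNA. Most of the genes of these proteins are transcribed at high rates in nearly every cell. Most of their messenger RNAs begin with a stretch of C and T letters, the 5' terminal oligopyrimidine (TOP) motif, through which mTORC1 controls their translation. Macrophages alter protein synthesis when they are activated, much of it by translation, which RNA abundance does not show.

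There were 3 libraries from macrophages of CT26 Sg-C3 tumours and 3 from macrophages of CT26 Sg-Con tumours, sorted by flow cytometry on day 15. CT26 is a mouse colon carcinoma line, and the names are read here as a guide RNA against complement C3 and a control guide RNA in the tumour cells. In both groups the strain label is BALB/C and the genotype label wild type, which describes the macrophages and not the tumour cells; the guide therefore cannot be checked from C3 RNA here. The labels do not say whether each line was a clone or a pool, or whether each library is a separate animal, and the p-values then speak of the spread between libraries, which could be technical.

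The depth estimated from the values was 17.6, 19.1 and 18.8 megareads in the Sg-C3 libraries and 19.3, 18.5 and 19.2 megareads in the Sg-Con libraries. A transcript of 500 bases at 100 FPKM (fragments per kilobase of transcript, scaled to the mapped reads of the library) then rests on 880 to 965 reads, with a counting error of 3.22% to 3.37%. The 10 macrophage markers summed to 8610, 9561 and 11129 FPKM in Sg-C3 and to 16025, 15719 and 14629 FPKM in Sg-Con. Of these, 4 were lower (Cd68, Itgam, Mertk and Lyz2), beside 31.7% of all tested genes, and 6 were not called, Adgre1 and Csf1r among them. The 10 neutrophil markers summed to 1338, 704 and 393 FPKM in Sg-C3 and 217, 163 and 233 FPKM in Sg-Con. S100a9 (734, 409 and 189 FPKM in Sg-C3 and 69.4, 23.4 and 76.7 FPKM in Sg-Con) and S100a8 (393, 184 and 85.8 FPKM in Sg-C3 and 60.5, 55.2 and 70.9 FPKM in Sg-Con) made up most of that sum in each Sg-C3 library. Of 7 tested neutrophil markers 4 were higher, beside 12.7% of all tested genes. Mmp8 and Mmp9 had negative differences that were not called (-1.04 and -0.60, limma adjusted p = 0.0707 and 0.143). The 13 measured NK and T cell markers summed to 50.3 to 59.3 FPKM in Sg-C3 and 3.40 to 8.64 FPKM in Sg-Con, and the 12 dendritic cell markers to 47.4 to 72.7 FPKM in Sg-C3 and 15.0 to 20.8 FPKM in Sg-Con. The 6 measured B cell markers summed to 12.8 to 17.6 FPKM in Sg-C3 and 4.70 to 10.3 FPKM in Sg-Con, the 10 fibroblast markers to 173 to 238 FPKM in Sg-C3 and 78.9 to 117 FPKM in Sg-Con, and the 7 measured carcinoma markers to 2.43 to 3.15 FPKM in Sg-C3 and 16.3 to 29.95 FPKM in Sg-Con. No measured marker was at 0 in all libraries. In bulk RNA, fewer cells of a type and less RNA per cell cannot be told apart, and the part of other cell types in the values below was not tested.

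Transcripts of the members made up a similar share of the summed FPKM in both groups. The share of the 88 members was 10.8%, 9.64% and 9.64% in the Sg-C3 libraries and 10.5%, 10.4% and 10.5% in the Sg-Con libraries. The groups overlapped, since Sg-C3 replicate 1 lay above every Sg-Con library and Sg-C3 replicates 2 and 3 below. The means were 10.01% ± 0.647 in Sg-C3 and 10.46% ± 0.0573 in Sg-Con (SD, n = 3 each), a difference of -0.444 percentage points. The difference was -0.817 percentage points without Sg-C3 replicate 1, and 0.143 percentage points when the 50 highest other genes were taken out of the library sum.

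The members moved together from library to library. Expressed as a percentage of each gene's own mean over the 6 libraries, the core genes had a median of 106%, 93.7% and 94.0% in the Sg-C3 libraries and 102%, 101% and 103% in the Sg-Con libraries. Of 77 core genes, 45 were highest in Sg-C3 replicate 1, and 32 were lowest in Sg-C3 replicate 2 and 35 in Sg-C3 replicate 3. In 56 of the 77, Sg-C3 replicates 2 and 3 both lay below every Sg-Con library. Like counts by library were not taken over all tested genes, so these counts cannot be called particular to the members. All 3 Sg-C3 libraries lay below every Sg-Con library in 41.4% of all tested genes. The large and small subunit genes shifted alike, as the ratio of their summed FPKM was 1.30, 1.31 and 1.31 in Sg-C3 and 1.31, 1.29 and 1.29 in Sg-Con. Sg-C3 replicate 1 was also the library with the fewest reads and the highest sum of neutrophil markers, most of it S100a8 and S100a9, whose part in this was not tested. The median coefficient of variation of the core genes was 7.20% in Sg-C3 and 2.64% in Sg-Con, beside 8.92% in Sg-C3 and 10.1% in Sg-Con for other genes of at least 100 FPKM.

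**Figure D1:**
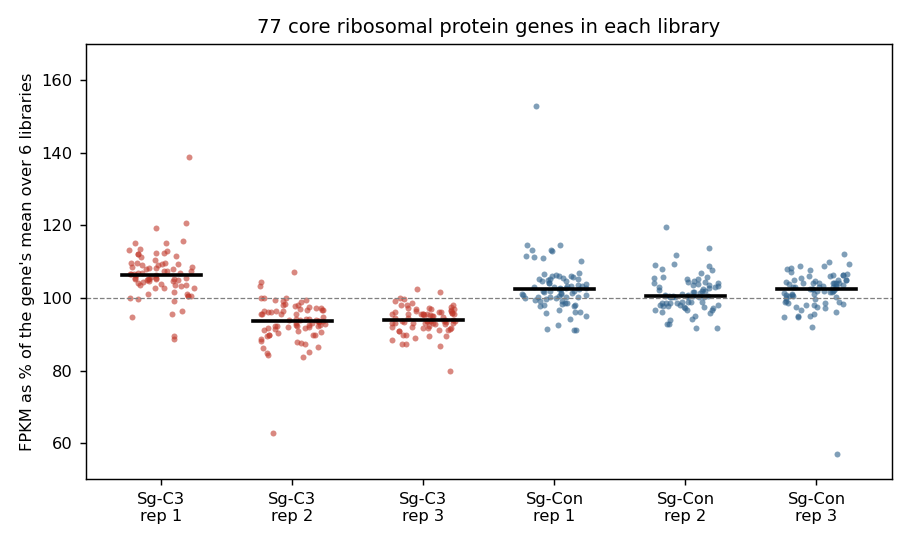
Each point is a core ribosomal protein gene and the vertical axis gives its FPKM in a library as a percentage of its mean over the 6 libraries; black bars are medians over the 77 genes. The median is 106% in Sg-C3 replicate 1 and 93.7% and 94.0% in Sg-C3 replicates 2 and 3, beside 101% to 103% in the Sg-Con libraries; Rpl26, a gene of low FPKM, gives the points farthest out.

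Few members differed between the groups in a data set in which close to every second gene did. Of 85 tested members, 0 were higher and 3 were lower in Sg-C3 (Rpl36a and Rpl14 among them) at a Benjamini-Hochberg adjusted p below 0.05 with limma, while 82 did not pass. The share of members called was 3.53%, against 44.4% of the 11198 genes tested (12.7% higher and 31.7% lower) and 54.6% of 694 other genes of at least 100 FPKM. At an unadjusted p below 0.05 there were 8 members, 7 with a negative difference and 1 with a positive difference. Of the 88 members, 3 were not tested: Rpl3l, at most 0.16 FPKM, Rpl32l, at most 0.34 FPKM, and Rps27rt, which was listed at 0 in 5 libraries and had 12.3 FPKM in Sg-Con replicate 3.

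The differences of the members were small as well as rarely called. Their log2 fold changes ran between -0.35 and 0.35, with a median of -0.07 against -0.16 over all tested genes, and 22 of 85 were above 0. Within 0.2 of 0 lay 85.9% of the members and 30.4% of the other tested genes. The median of the large subunit genes was -0.07 and that of the small subunit genes -0.06. All 3 libraries of a group lay on the same side of the other group for 20 members, or 23.5%, against 57.6% of all tested genes. In 15 of these the Sg-C3 values were below the Sg-Con values (41.4% of all tested genes), and in 5 they were above (16.2%).

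**Figure D2:**
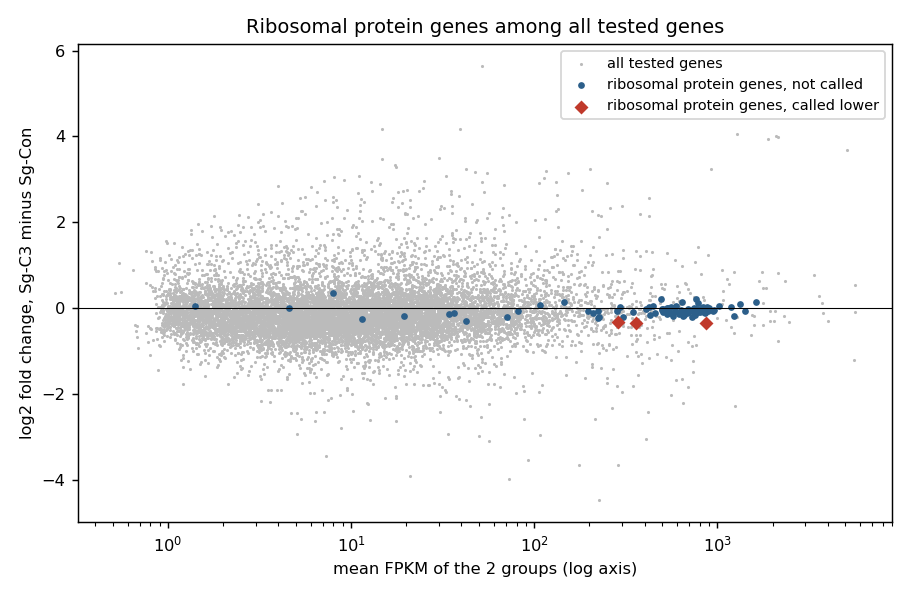
The log2 fold change on log2(FPKM + 1), Sg-C3 minus Sg-Con, is plotted against the mean FPKM on a log axis; grey points are all tested genes, blue points members not called and red diamonds members called lower. The tested members lie between -0.35 and 0.35, most of them above 200 FPKM and a few, such as Rpl39l and Rpl26, under 10 FPKM; the 3 called members have negative values.

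How many members pass depends on the scale of the library. Median-ratio scaling, which centres the typical gene, moved the median difference over all tested genes to 0.00479 on the log2 scale, against -0.16 as deposited, and that of the members to 0.13. On that scale 9 members were higher (among them Rplp1, Rps21, Rpl39, Rps20, Rpl22l1, Rps9, Rpl19 and Rps27), against 19.6% of all genes, and 0 were lower, against 17.6%. Relative to the median of all tested genes, the median of the members was 0.10 on the deposited scale, and 14 of the 85 lay below that median. Without Sg-C3 replicate 1, 6 members were lower on the deposited scale (among them Rpl36a, Rpl14, Rpl8, Rps2 and Rps19), against 21.9% of the genes tested there. With quantile normalization 1 member was higher, against 16.5% of all genes, and at an adjusted p threshold of 0.1 there were 1 higher and 8 lower members, against 16.3% and 39.3%. Without Sg-C3 replicate 2 or without Sg-Con replicate 1, Rpl36a alone was lower, 1 member, against 17.9% and 21.9% of the genes tested.

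Rpl36a, a large subunit protein of the exit site region, had the largest drop among the core genes. It measured 322, 306 and 317 FPKM in Sg-C3 and 406, 402 and 403 FPKM in Sg-Con. The groups were wide apart beside their own spread, with means of 315 ± 8.11 FPKM in Sg-C3 and 403 ± 2.18 FPKM in Sg-Con (SD, n = 3 each). The log2 fold change was -0.35 (SE 0.07, limma adjusted p = 0.00975), and the gene stayed lower without any of the 6 libraries in turn (limma adjusted p between 0.0206 and 0.0446). Scaled on the 77 core genes, it was -0.30 (limma adjusted p = 0.0277), and after median-ratio scaling -0.16 (limma adjusted p = 0.112).

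Rpl14, another large subunit protein, measured 274, 241 and 250 FPKM in Sg-C3 and 327, 312 and 311 FPKM in Sg-Con. The groups did not overlap. Its log2 fold change was -0.32 (SE 0.09, limma adjusted p = 0.0219). The call was lost without Sg-C3 replicate 2 (limma adjusted p = 0.0845), without Sg-Con replicate 1 (0.0681) and without Sg-Con replicate 3 (0.0535), and after median-ratio scaling (-0.12, limma adjusted p = 0.238).

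At the other end, Rps27 had Sg-C3 values above every Sg-Con value without passing the test on the deposited scale. Rps27, of the small subunit, measured 921, 817 and 733 FPKM in Sg-C3 and 696, 709 and 703 FPKM in Sg-Con, a log2 difference of 0.22 (SE 0.10, limma adjusted p = 0.115). The spread of Rps27 lay mostly in Sg-C3, with an SD of 94.5 FPKM there and 6.91 FPKM in Sg-Con. Scaled on the 77 core genes, 2 members were higher, among them Rps27 by 0.28 (limma adjusted p = 0.0337), and 2 were lower, Rpl36a and Rpl14. On that scale 14% of all tested genes were higher and 21.6% lower.

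**Figure D3:**
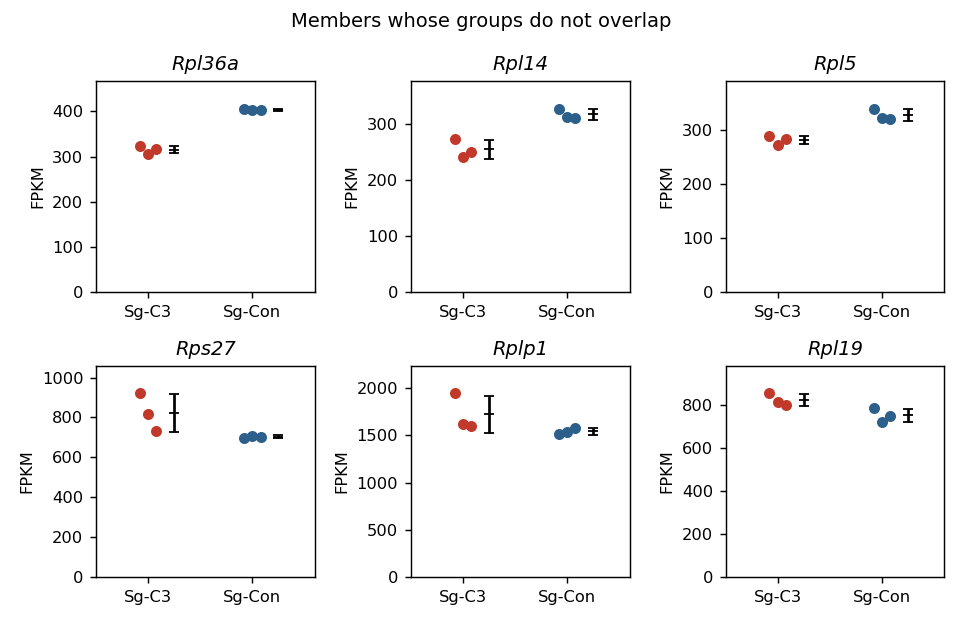
Points are the FPKM of the 3 libraries of each group, Sg-C3 left of Sg-Con, and the bars beside them the mean and SD (n = 3). Rpl36a, Rpl14 and Rpl5 have Sg-C3 values below every Sg-Con value; Rps27, Rplp1 and Rpl19 have Sg-C3 values above every Sg-Con value, with Sg-C3 replicate 1 the highest.

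The P stalk recruits and activates elongation factors on the large subunit and is built of Rplp0, Rplp1 and Rplp2. Rplp1 had the highest level of the members, 1947, 1619 and 1601 FPKM in Sg-C3 and 1512, 1538 and 1580 FPKM in Sg-Con, with no overlap and a log2 difference of 0.15 (limma adjusted p = 0.261). Rplp0 measured 1176, 994 and 954 FPKM in Sg-C3 and 1028, 1001 and 968 FPKM in Sg-Con, and Rplp2 882, 755 and 778 FPKM in Sg-C3 and 816, 821 and 793 FPKM in Sg-Con. Both overlapped between the groups, with log2 differences of 0.05 (limma adjusted p = 0.692) and -0.01 (0.921).

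Rpl5 and Rpl11 form a particle with 5S ribosomal RNA that can also hold back the p53 inhibitor Mdm2. Rpl5 measured 289, 273 and 283 FPKM in Sg-C3 and 340, 322 and 320 FPKM in Sg-Con, with no overlap but short of the threshold (-0.22, limma adjusted p = 0.0563). Rpl11 measured 667, 590 and 610 FPKM in Sg-C3 and 729, 694 and 647 FPKM in Sg-Con, and the groups overlapped (-0.15, limma adjusted p = 0.219). Mdm2 itself was higher, 172 ± 26.3 FPKM in Sg-C3 and 109 ± 17.5 FPKM in Sg-Con (SD, n = 3 each, limma adjusted p = 0.0138).

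Rps6, Rpsa, Rps27a and Rpl13a, chosen for roles known beyond the ribosome, were not called. Rps6, the substrate of S6 kinases, measured 543, 493 and 471 FPKM in Sg-C3 and 504, 484 and 523 FPKM in Sg-Con (log2 difference -0.01, limma adjusted p = 0.960). Rpsa, also known as a laminin receptor, measured 609, 507 and 536 FPKM in Sg-C3 and 598, 573 and 608 FPKM in Sg-Con (-0.11, limma adjusted p = 0.368). Both overlapped between the groups. Rps27a, made as a fusion with ubiquitin, measured 614, 563 and 539 FPKM in Sg-C3 and 586, 600 and 609 FPKM in Sg-Con (-0.07, limma adjusted p = 0.540). Rpl13a, which in human myeloid cells takes part in silencing of inflammatory transcripts, measured 674, 596 and 608 FPKM in Sg-C3 and 659, 634 and 623 FPKM in Sg-Con (-0.03, limma adjusted p = 0.787). Both again overlapped, and Sg-C3 replicate 1 was the highest library for Rps27a and for Rpl13a.

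The level of the core genes varied far more between genes than between groups. By the mean over all 6 libraries, Rplp1 (1633 FPKM), Rpl41 (1416), Rps9 (1330), Rps2 (1235), Rpl10 (1188) and Rplp0 (1020) were highest, and 65 of the 77 lay between 200 and 1000 FPKM around a median of 632 FPKM. Rpl41 encodes the smallest ribosomal protein, and it measured 1580, 1302 and 1290 FPKM in Sg-C3 and 1443, 1423 and 1458 FPKM in Sg-Con, overlapping. Rps2 had a mean of 1158 FPKM in Sg-C3 and 1312 FPKM in Sg-Con and was not called (-0.19, limma adjusted p = 0.170). The lowest means were 4.55 FPKM for Rpl26, 19.3 FPKM for Rpl30, 34.3 FPKM for Rps15a and 70.5 FPKM for Rpl22.

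The low rows of Rpl26, Rpl30 and Rps15a had high rows of pseudogene copies beside them. The RefSeq gene Gm15772, assigned to the same KEGG orthologue as Rpl26, averaged 693 FPKM over the 6 libraries, and 74.3% of its 50-base stretches also occur in Rpl26 transcripts. Gm12191 averaged 435 FPKM beside Rpl30 and shared 83.3% of its 50-base stretches with it. The Rps15a copies Rps15a-ps6 and Rps15a-ps4 averaged 70.3 and 40.6 FPKM. Reads of a gene and such a copy cannot be divided with certainty, so the separate levels of these members are uncertain. Added to their copies, Rpl26 came to 690 ± 64.8 FPKM in Sg-C3 and 705 ± 12.4 FPKM in Sg-Con, Rpl30 to 445 ± 35.2 FPKM in Sg-C3 and 464 ± 41.99 FPKM in Sg-Con, and Rps15a to 139 ± 8.53 FPKM in Sg-C3 and 151 ± 2.73 FPKM in Sg-Con (SD, n = 3 each).

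Rpl14 also had a copy, Rpl14-ps1, with 78.3% of its 50-base stretches in Rpl14 transcripts. It measured 111, 129 and 145 FPKM in Sg-C3 and 175, 183 and 186 FPKM in Sg-Con and was itself lower (log2 fold change -0.50, limma adjusted p = 0.0117). In each group the row of Rpl14 was highest in the library where its copy was lowest. The sum of both measured 384, 370 and 395 FPKM in Sg-C3 and 502, 495 and 497 FPKM in Sg-Con, a log2 fold change of -0.38 (SE 0.08, limma adjusted p = 0.00845). With all copies added to their genes, 3 members were again lower and 0 higher, against 44.5% of all genes called.

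**Figure D4:**
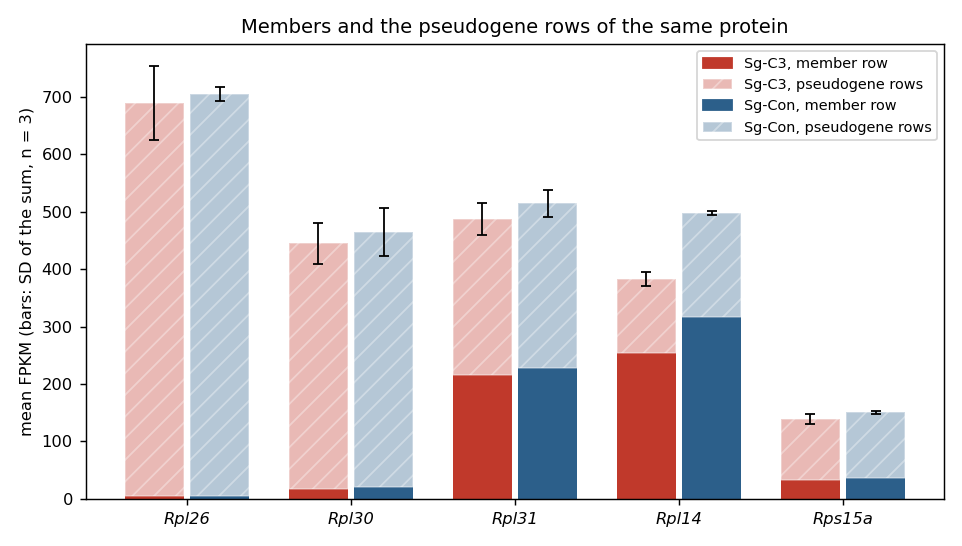
Stacked bars give the mean FPKM of a member (solid) and of its pseudogene rows (hatched) in Sg-C3, left, and Sg-Con, right; error bars are the SD of the sum (n = 3). For Rpl26 and Rpl30 nearly all FPKM lie on the pseudogene rows, and for Rpl14 the sum is lower in Sg-C3.

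Promoters of the core genes were read from RefSeq for the GRCm38.p6 build, a later build than the one used for the table, as windows of 250 bases before to 50 bases after the annotated start. Of the 77 core genes 57 matched an entry, and 36 of these (63.2%) had an unbroken run of at least 8 C or T letters, on the strand of the gene, that starts with C within 30 bases of the start. The share was 23.5% of 8856 tested genes with an entry and 27.9% of 68 mitochondrial ribosomal protein genes. For runs of at least 5 letters the contrast was smaller, 89.5% of the core genes and 65.5% of tested genes. The motif CCGGAAG, searched on both strands, was found in 24 of the 57 (42.1%) and in 21.5% of tested genes and TATAAA in 6 (10.5%) and in 8.9%. The runs mark where a TOP motif would lie, and the following 60 bases, 30 on either side of the start and with the run in capitals, are shown for a called member, for a member whose groups did not overlap and for members whose groups overlapped. A match is a description of these letters and no evidence of a TOP motif in use.
Rpl14, chr9:120571487-120571546, plus strand: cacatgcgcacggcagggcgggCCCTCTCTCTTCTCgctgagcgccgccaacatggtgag
Rps27, chr3:90213619-90213678, minus strand: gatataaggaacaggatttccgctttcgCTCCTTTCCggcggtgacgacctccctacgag
Rps6, chr4:86857338-86857397, minus strand: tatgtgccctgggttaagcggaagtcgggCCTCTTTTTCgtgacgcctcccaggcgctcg
Rplp2, chr7:141447621-141447680, plus strand: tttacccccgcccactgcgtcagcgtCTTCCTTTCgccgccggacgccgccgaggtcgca
Rpl13a, chr7:45128716-45128775, minus strand: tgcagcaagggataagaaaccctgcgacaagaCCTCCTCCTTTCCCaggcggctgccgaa
Rpl22l1, chr3:28805478-28805537, plus strand: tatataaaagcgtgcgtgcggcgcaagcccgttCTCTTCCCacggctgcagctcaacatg

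Runs of this kind occurred at the start of Rpl14, which was lower, of Rps27, which lay above the Sg-Con values, and of Rps6, Rplp2 and Rpl13a, which overlapped. In Rpl36a a run of 13 letters begins 28 bases after the annotated start. Rplp1 is named only.

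The paralogue copies were expressed at very different levels, and 0 of the 7 tested copies were called with limma, 2 of them at an unadjusted p below 0.05 (Rpl36al and Rpl37rt), beside 44.4% of all tested genes called. Rpl22l1, which can replace Rpl22 in the ribosome, measured 169, 140 and 145 FPKM in Sg-C3 and 132, 151 and 130 FPKM in Sg-Con (0.13, limma adjusted p = 0.332). Rpl22 measured 67.9, 64.3 and 64.3 FPKM in Sg-C3 and 79.8, 69.7 and 76.8 FPKM in Sg-Con (-0.20, limma adjusted p = 0.0955). Rpl22l1 overlapped and Rpl22 did not. Rpl22l1 thus exceeded Rpl22 in every library, by 2.49, 2.17 and 2.25 times in Sg-C3 and 1.66, 2.16 and 1.69 times in Sg-Con, and the ratios did not overlap by a narrow margin.

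Rps27l, a p53 target, measured 80.1, 82.6 and 76.0 FPKM in Sg-C3 and 84.3, 85.0 and 81.5 FPKM in Sg-Con (-0.07, limma adjusted p = 0.478). Its ratio to Rps27 was 0.0869, 0.101 and 0.104 in Sg-C3 and 0.121, 0.1198 and 0.116 in Sg-Con, without overlap. Rpl36al, a near copy of Rpl36a on another chromosome with which it may share reads, measured 220, 209 and 198 FPKM in Sg-C3 and 245, 240 and 239 FPKM in Sg-Con (-0.21, limma adjusted p = 0.0666). The ratio of Rpl36al to Rpl36a was 0.684, 0.681 and 0.625 in Sg-C3 and 0.604, 0.598 and 0.595 in Sg-Con, without overlap. Of 6 such ratios, these 3 did not overlap and 3 did (Rpl39l to Rpl39, Rps4l to Rps4x and Rpl37rt to Rpl37), beside 57.6% of all tested genes whose groups did not overlap, so the count of ratios is no result about the copies. The ratios were not tested.

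**Figure D5:**
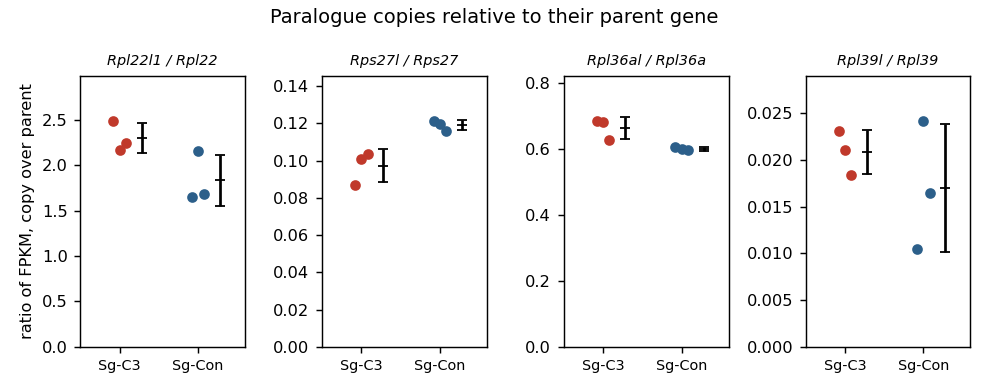
Points are the ratio of a copy's FPKM to that of its parent gene in each library, Sg-C3 left of Sg-Con, with the mean and SD (n = 3). Sg-C3 ratios lie above the Sg-Con ratios for Rpl22l1 and Rpl36al, below them for Rps27l, and overlap for Rpl39l.

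The other copies were lower in level. Rpl39l measured 10.3, 8.71 and 7.75 FPKM in Sg-C3 and 4.47, 9.85 and 6.81 FPKM in Sg-Con (0.35, limma adjusted p = 0.266), the most positive difference of any member, with overlapping groups. Rpl7l1, whose yeast relative works in ribosome assembly, measured 34.6 to 34.8 FPKM in Sg-C3 and 33.3 to 41.6 FPKM in Sg-Con (-0.12, limma adjusted p = 0.350). Rpl37rt measured 34.2 to 43.5 FPKM in Sg-C3 and 41.4 to 52.2 FPKM in Sg-Con (-0.30, limma adjusted p = 0.0887), and Rpl37 225, 190 and 203 FPKM in Sg-C3 and 249, 230 and 245 FPKM in Sg-Con (-0.23, limma adjusted p = 0.0809). Rps4l, a transcribed pseudogene in RefSeq, lay between 1.09 and 1.86 FPKM. Rps19bp1 measured 12.2, 9.09 and 9.83 FPKM in Sg-C3 and 13.6, 11.4 and 12.3 FPKM in Sg-Con (-0.25, limma adjusted p = 0.152), and the groups overlapped.

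The ribosome genes outside the naming rule, Fau and Rack1 among them, were not called (0 of 3 with limma, and 0 at an unadjusted p below 0.05, beside 44.4% of all tested genes called). Fau, which encodes Rps30, averaged 1093 ± 83.4 FPKM in Sg-C3 and 1018 ± 4.87 FPKM in Sg-Con (0.10, limma adjusted p = 0.386). Rack1, a signalling scaffold on the small subunit, averaged 720 ± 43.2 FPKM in Sg-C3 and 772 ± 33.2 FPKM in Sg-Con (-0.10, limma adjusted p = 0.374). Among 13 other TOP transcripts, 1 was higher (Gas5) and 1 lower (Vim), with a median log2 fold change of 0.01, and Gas5 was lost in every fit that left out a library, while 2 were lower without Sg-Con replicate 1. After median-ratio scaling 4 of the 13 were higher, against 19.6% of all tested genes.

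Counts for genes of translation, of ribosome assembly and of growth control are set here beside 31.7% lower and 12.7% higher over all tested genes. Those shares also changed with the fit, so each recount below is to be read beside them. Without Sg-C3 replicates 1, 2 and 3 in turn, 21.9%, 17.9% and 33% were lower and 7.98%, 7.35% and 12.9% higher. Without Sg-Con replicates 1, 2 and 3 in turn, 21.9%, 22.9% and 25.1% were lower and 10.4%, 9.07% and 11.9% higher. Median-ratio scaling gave 17.6% lower and 19.6% higher. Of 77 mitochondrial ribosomal protein genes, which serve a separate ribosome, 47 were lower and 1 was higher, with a median of -0.38, for example Mrpl28 at 17.0 ± 1.66 FPKM in Sg-C3 and 32.4 ± 3.16 FPKM in Sg-Con (limma adjusted p = 0.00226). The lower count was 26 when Sg-C3 replicate 2 was left out, and 23 with median-ratio scaling, and the higher gene, Mrps6, passed in 2 of the 6 fits that left out a library, those without Sg-C3 replicate 3 or Sg-Con replicate 3. Of 10 genes listed with the elongation factors 4 were lower, and Eef2k and Eef1e1 among these encode no elongation factor themselves. Eef1g was also lower (199 ± 13.2 FPKM in Sg-C3 and 273 ± 16.9 FPKM in Sg-Con, limma adjusted p = 0.00839), while Eef1a1 and Eef2 were not called. The lower count of this list was 2 when Sg-C3 replicate 2 was left out, and 2 with median-ratio scaling. Of 37 initiation factors 12 were lower, Eif4b and Eif2b3 among them, and 3 higher, the lower count near the share over all tested genes; the higher count was 1 without Sg-C3 replicate 1, Sg-C3 replicate 2, Sg-Con replicate 1 or Sg-Con replicate 2. After median-ratio scaling 5 were lower and 6 higher.

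Of 54 ribosome assembly factors 11 were lower, such as Mphosph10 and Pes1, and 3 higher. Leaving out Sg-C3 replicate 1 or Sg-Con replicate 3 gave a lower count of 4, and leaving out Sg-C3 replicate 2 or Sg-Con replicate 1 a lower count of 3. The higher count was 0 without Sg-C3 replicate 1, Sg-C3 replicate 2 or Sg-Con replicate 2 and 1 without Sg-Con replicate 1, and median-ratio scaling gave 3 lower and 6 higher. Of 20 genes of the RNA polymerase I machinery 4 were lower, all of them subunits shared by the nuclear polymerases (Polr2e, Polr2f, Polr2h and Polr2l), and 1 was higher (Taf1d). The lower count was 2 without Sg-C3 replicate 2, Sg-Con replicate 1 or Sg-Con replicate 3, Taf1d was not called without Sg-C3 replicate 1, Sg-Con replicate 1 or Sg-Con replicate 2, and median-ratio scaling gave 2 lower and 5 higher. Of 20 genes of ribosome quality control or of the surveillance of ribosomal proteins 3 were higher, Mdm2 among them, and 2 lower. The lower count was 3 without Sg-C3 replicate 3 and 0 without any other library, and 0 with median-ratio scaling.

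Genes that regulate growth upstream of the ribosome are given last. Of 31 genes listed for mTORC1 signalling, TOP control or the Rps6k family name, 15 were lower, Rps6ka3 and the lysosomal scaffold gene Lamtor1 among them. Rps6ka3 measured 9.26 ± 0.834 FPKM in Sg-C3 and 20.8 ± 1.27 FPKM in Sg-Con (limma adjusted p = 0.00128). Lamtor1 measured 45.6 ± 4.09 FPKM in Sg-C3 and 86.5 ± 7.26 FPKM in Sg-Con (limma adjusted p = 0.00194). Rps6kb1 and Rps6kb2 were not called (limma adjusted p = 0.198 and 0.543). Ddit4, an inhibitor of mTORC1 and 1 of 2 higher genes, was at 55.3 ± 6.77 FPKM in Sg-C3 and 21.2 ± 3.22 FPKM in Sg-Con (limma adjusted p = 0.00161). Other inhibitors of mTORC1 were among the lower genes, such as Sesn1 (-0.95, limma adjusted p = 0.0066) and Tsc2 (-0.46, limma adjusted p = 0.0213). The counts therefore give no direction of mTORC1 signalling, which was not tested. The count of lower genes was 9 when Sg-C3 replicate 2 was left out, and 8 with median-ratio scaling. In the Myc network 1 of 10 tested genes was higher (Mxd1), 2 without Sg-C3 replicate 3 and 3 with median-ratio scaling, and 1 was lower (Mxd4), while Myc measured 22.9 ± 4.66 FPKM in Sg-C3 and 20.8 ± 1.82 FPKM in Sg-Con (limma adjusted p = 0.532).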

How the data were processed

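RNA sequencing of sorted macrophages gave 1 table of FPKM for 15487 genes in 6 libraries. The FPKM values were computed by the authors, per the file headers; per the submitters' processing notes, mapping involved Bowtie 0.12.2, with mm8 as the build. Which tool gave FPKM is not stated in the sources. Of library kits, TruSeq and MGIEasy both appear in the labels' protocols. Samples were grouped by source label, and replicates are numbered in accession order. The sample titles come in differing styles. In both groups replicate 3 has its own style (SGC3 and CON), while the other libraries are titled C3KO or TAM. What the styles stand for is not stated, and they were used as a covariate in one alternative fit.

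For testing, a gene needed 1 FPKM or more in 3 libraries or more. limma 3.58.1 (R 4.3.3; lmFit, then eBayes with trend) was run on log2 of FPKM with a pseudocount of 1, with Benjamini-Hochberg adjustment over all 11198 tested genes and a threshold of 0.05. Each log2 fold change is the Sg-C3 mean less the Sg-Con mean of these values. They understate the change of low genes. "Higher" and "lower" refer to called genes. Tests for counts were not used, since the table holds none. Depth was estimated from the steps of 428 short non-coding genes, with 36 bases taken off each length; within 0.1 read, 88.2% to 92.5% of values were whole. Intervals from such counts cover counting error only. Scaling on the core genes subtracts, from the log2 values of each library, its median deviation over the 77 core genes.

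Named members are the called ones, the 6 highest and 4 lowest core genes by level, the 5 highest and 5 lowest log2 fold changes, the copies and 10 members by role, with 3 genes of smallest p per companion list. Adgre1, Csf1r, Eef1a1, Eef2, Myc, Mrps6, Taf1d, Polr2l, S100a8, S100a9, Mmp8, Mmp9, Sesn1, Tsc2, Rps6kb1 and Rps6kb2 were named after their values were seen, as were members in counts by another scale. Members and lists were chosen with earlier results of these data known. Some genes covered by this rule are not reported here. The script was tested on simulated data. The limit of 30 bases for promoter runs was set after values were seen. RefSeq gave names and promoters; 15440 identifiers matched. Other tools were Python 3.11.15, pandas 2.3.3, numpy 2.4.6 and matplotlib 3.10.9.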

Additional observations from a re-analysis of the deposited data

How the results depend on the processing

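With the deposited values, 0 members were higher and 3 lower. The count of higher members was 1 after quantile normalization (16.5% of all genes), 9 after median-ratio scaling, 2 when scaled on the core genes and 1 at an adjusted p threshold of 0.1 (16.3%); that of lower members was 0 after median-ratio scaling and 8 at a threshold of 0.1 (39.3%), and ran between 1 and 6 when a library was left out. The median log2 fold change of the members was -0.07, and 0.13 after median-ratio scaling; leaving out a library gave -0.12 to -0.03. The share difference of -0.444 percentage points became 0.143 percentage points without the 50 highest other genes, and -0.817 to -0.256 percentage points when a library was left out. Over all genes, 1418 were higher and 3554 lower; median-ratio scaling gave 2198 and 1971, and leaving out a library 810 to 1423 higher and 1970 to 3639 lower. Of the companion lists 15 genes were higher and 97 lower; the higher count was 26 after quantile normalization, 34 after median-ratio scaling, 9 with the style of the sample title as a covariate and 6 to 17 when a library was left out, and the lower count 45 after median-ratio scaling and 53 to 95 when a library was left out. The cause of these shifts was not tested.

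Array weights, a pseudocount of 0.1, leaving out the filter and requiring a mean of 5 FPKM moved none of these counts by over 1.5 times. Adding pseudogene copies, chosen after seeing the data, left the member counts at 3 lower and 0 higher. Of 846 values for single genes and lists under an alternative, 729 kept their side, 10 lost and 19 gained the threshold, 88 were marked as moved and 0 reversed. A sum without mitochondrially encoded genes was not run, as the table lists 0 such rows. No paired analysis was possible because the labels give the groups no shared replicate numbers. Depth limits low members such as Rpl39l and Rps4l.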

Other observations

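The genes named Rps6k, which the naming rule sets aside, carry the family name of the S6 kinases. Whether the product of each one acts on Rps6 is not shown by these data. Rps6ka1 measured 18.8, 15.6 and 22.6 FPKM in Sg-C3 and 46.9, 42.5 and 32.7 FPKM in Sg-Con, a log2 fold change of -1.06 (limma adjusted p = 0.00476), and the groups did not overlap. Rps6kc1 was lower, at 4.46, 3.30 and 4.31 FPKM in Sg-C3 and 6.29, 5.89 and 6.13 FPKM in Sg-Con (-0.51, limma adjusted p = 0.0150). Rps6ka2 was higher, at 9.44, 7.66 and 4.08 FPKM in Sg-C3 and 2.53, 3.30 and 3.27 FPKM in Sg-Con (0.94, limma adjusted p = 0.0232), and the call was lost without Sg-C3 replicate 1, Sg-C3 replicate 2 or Sg-Con replicate 1 (highest limma adjusted p = 0.0813). Rps6kb1, the gene of the main kinase of Rps6 below mTORC1, measured 5.68, 5.97 and 6.59 FPKM in Sg-C3 and 7.21, 6.67 and 6.95 FPKM in Sg-Con and was not called (-0.17, limma adjusted p = 0.198).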
